A study of Mus musculus with 10 samples.

Results

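Small nucleolar RNA (snoRNA) genes were followed in mouse bone marrow neutrophils that did or did not carry Lcn2, the gene of the siderophore-binding granule protein lipocalin 2, with and without the chemoattractant peptide fMLP. Genes were taken by name: 51 genes on the array have a symbol that starts with Snord (31 C/D box genes) or Snora (20 H/ACA box genes) and at least 1 probe set that names no other gene. Where a gene had several such probe sets the one with the highest average over the 10 arrays stood for it, and 35 genes (20 C/D box, 15 H/ACA box) lay above the array's own median on 2 or more arrays. These 35 are among 13496 genes of the array that passed the same filter, out of 19938 with a probe set of their own. Of the 35, 18 lay above the median on all 10 arrays, and 28 did so on 2 or more unstimulated arrays. The last genes let in were Snora75 and Snord42b, whose second highest array lay 0.02 and 0.11 above its median on the log2 scale, and the first left out were Snora30 and Snord118, at -0.05 and -0.14.

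The stated question of the study is the role of lipocalin 2 in neutrophils at rest and after stimulation. All cells came from C57bl/6 mice labelled as female and 10 weeks old, and were taken from the layer between 81% and 62% Percoll after flushing of the marrow and lysis of red cells. The 4 groups were unstimulated wild type (3 arrays), unstimulated Lcn2 knockout (3 arrays), wild type exposed for 20 minutes to 10 micromolar fMLP at 37 °C (2 arrays), and knockout exposed in the same way (2 arrays). The labels give no allele for the knockout and no animal for a replicate, so p-values measure only the spread between these samples, which may be technical. They also leave unstated at which temperature the unstimulated cells were held.

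SnoRNAs are short RNAs of the nucleolus that guide chemical changes of ribosomal and small nuclear RNA. C/D box snoRNAs pair with a target and place a methyl group on the ribose of a base, through the methyltransferase fibrillarin, while H/ACA box snoRNAs direct the change of uridine to pseudouridine by dyskerin. In mammals most of them are not transcribed on their own: they are cut out of introns of a host gene, very often a gene of a ribosomal protein, a translation factor or a noncoding RNA whose spliced transcript decays quickly. The level of a snoRNA therefore depends on host transcription and splicing, on the trimming of the intron and on how long the finished particle lasts, and host mRNA and snoRNA need not move together.

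The arrays fell into 2 sets by the spread of their values. Unstimulated replicates 1 and 2 of both genotypes (set 1) had interquartile ranges of 1.64 to 1.68, and the 4 fMLP arrays together with the third unstimulated array of each genotype, replicate 3, had 2.47 to 2.59 (set 2). Correlations over all probe sets were 0.75 to 0.813 between the sets, so fMLP arrays are compared here with unstimulated replicate 3 first, by a model with the array set as a block. Knockout fMLP replicate 2 stood apart: it correlated at 0.945 to 0.949 with the other fMLP arrays, which correlated at 0.993 to 0.995 with each other, and its median over 8 neuron markers was 11.68 against 7.37 to 8.49 on the other 9 arrays. The main fMLP results are therefore given with and without it. Lcn2 was at 13.88 to 14.16 on wild type and 8.09 to 9.60 on knockout arrays, and all 12 neutrophil markers lay above the median on every array. Xist, the RNA of the inactive X chromosome, was at 6.88 to 7.82 on the unstimulated arrays and at 9.83 to 11.12 on the fMLP arrays, while Eif2s3y, a Y-linked gene, was at 9.83 and 9.59 on unstimulated replicate 3 and at 5.36 to 6.48 on the fMLP arrays. Within set 2 these genes thus go against the label of female mice for the unstimulated arrays, and sex and fMLP cannot be told apart there. The median over 6 eosinophil, basophil and mast cell markers was 10.59 to 10.64 on unstimulated replicate 3 and 7.66 to 8.43 on fMLP arrays. That over the 5 monocyte markers was 10.45 to 10.92 and 8.32 to 9.41. The set 1 arrays, also unstimulated, had 8.175 to 8.47 and 8.46 to 8.86, which overlapped the fMLP arrays for both lists. In such bulk RNA, fewer cells of a type and less RNA per cell cannot be told apart.

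All 35 snoRNA genes lie inside at least 1 other gene in RefSeq's gene table, 31 containing genes in all, and the strand was not part of that match. Containing genes of ribosomal proteins hold 9 of the 20 C/D box and 7 of the 15 H/ACA box genes. Noncoding RNA genes alone hold 3 C/D box genes and 5 H/ACA box genes. The annotated lengths overlapped between the classes but differed in their medians. They were 53 to 148 bases (median 72) for C/D box genes and 105 to 205 bases (median 129) for H/ACA box genes. Many such hosts begin with a run of pyrimidines, the mark of a class of mRNAs whose translation follows growth signals. The 30 bases around the annotated start (15 before it and 15 from it on, RefSeq, GRCm38.p6) are shown for the containing genes of the snoRNAs with the largest differences below, with each CTTT on the gene's strand in capitals:
Eef2 (holds Snord37, chr10:81176616-81176645, plus strand): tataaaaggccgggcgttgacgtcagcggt
Nop56 (holds Snord57, chr2:130274397-130274426, plus strand): aggtgtggtctccgcagtctggttccgcgc
Rpl13a (holds Snord33 and Snord35a, chr7:45128731-45128760, minus strand): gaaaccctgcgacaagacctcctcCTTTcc
2410006H16Rik (holds Snord49a and Snord49b, chr11:62602862-62602891, plus strand): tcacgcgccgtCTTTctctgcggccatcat
Rps3 (holds Snord15a and Snord15b, chr7:99483695-99483724, minus strand): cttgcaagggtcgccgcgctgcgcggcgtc
Tpt1 (holds Snora31, chr14:75845241-75845270, plus strand): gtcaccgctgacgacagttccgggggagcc
CTTT was found in 2 of these 6 windows. Over all containing genes, 23 of 31 had an entry, with 24 starts, and 10 of the 24 windows (41.7%) held CTTT on the gene's strand, against 12.0% of 32851 windows in the whole table. On the other strand the shares were 8.33% and 11.7%. A match, or the lack of one, describes these letters anywhere in the 30 bases, also before the annotated start. Whether a transcript begins with a run of pyrimidines was not tested. The start used in these cells was not tested.

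After fMLP the C/D box genes lay mostly higher than on unstimulated replicate 3, and the H/ACA box genes lay on either side. In the model over all 10 arrays, Snord37 rose and Snora31 fell, and no other member passed the test (limma, Benjamini-Hochberg adjusted p below 0.05 over 13496 genes). Of all tested genes 0.2% were called higher and 0.222% lower, so calls were rare on the whole array. The median log2 difference was 0.29 over the 20 C/D box genes (18 above 0), -0.08 over the 15 H/ACA box genes (5 above 0) and -0.02 over all tested genes. A difference of 1 on this scale is a factor of 2. Of the 35 members, 6 lay below the array median on every unstimulated array and entered only through fMLP arrays (Snora21, Snora33, Snora75, Snord33, Snord37 and Snord42b), so counts over the 35 favour a rise. Without any filter, over all 51 genes, the medians were 0.26 for 31 C/D box genes (28 above 0) and 0.02 for 20 H/ACA box genes (10 above 0), and 2 were called higher and 1 lower, against 0.105% and 0.13% of 19938 genes.

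Without knockout fMLP replicate 2 the model called 12 of the 35 members higher and 1 lower, against 6.79% and 3.98% of all tested genes. The 12 were 10 C/D box genes (Snord37, Snord57, Snord49b, Snord33, Snord35a, Snord15a, Snord104, Snord53, Snord35b and Snord42b) and 2 H/ACA box genes (Snora33 and Snora75), and Snora31 was the one called lower. The median difference was then 0.46 for C/D box genes (20 of 20 above 0), 0.13 for H/ACA box genes (9 of 15 above 0) and -0.009 for all tested genes. Over all 51 genes without a filter, 12 of 31 C/D box genes (38.7%) and 4 of 20 H/ACA box genes (20%) were called higher, against 3.91% of 19938 genes, and 1 H/ACA box gene was called lower, against 2.3%. The difference between the classes itself was not tested.

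**Figure D1:**
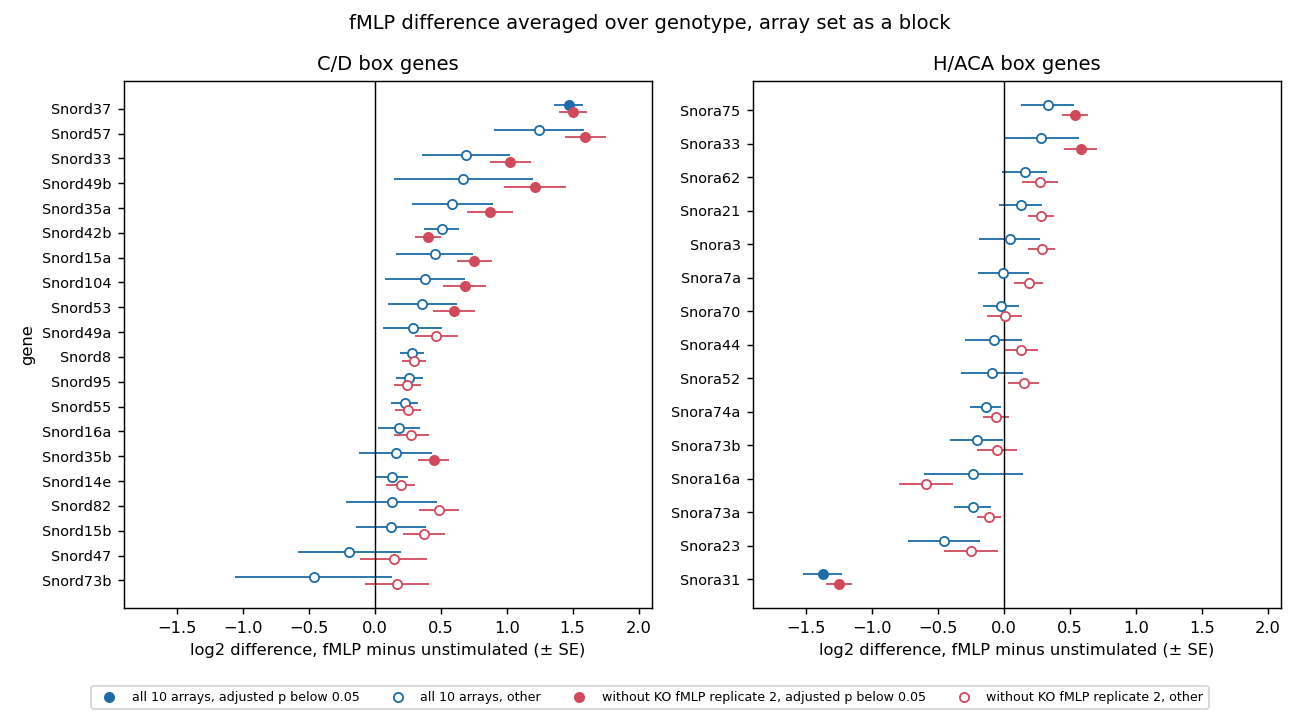
Log2 difference between fMLP and unstimulated arrays (x axis, points with bars of 1 SE) for each of the 20 C/D box genes (left) and 15 H/ACA box genes (right), over all 10 arrays (blue) and without knockout fMLP replicate 2 (red); filled points have an adjusted p below 0.05. Snord37 (1.47) and Snora31 (-1.37) are filled in both fits, and 11 more points are filled without the array.

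Among C/D box genes, Snord37 had the largest difference over all 10 arrays, and Snord57 the largest without knockout fMLP replicate 2. Snord37 lies in Eef2, the gene of the factor that moves the ribosome along the mRNA. Its log2 signal was 6.57 and 6.84 on unstimulated replicate 3 of wild type and knockout, 8.27 and 8.45 on the wild type fMLP arrays, and 8.06 and 7.93 on the knockout fMLP arrays. All 4 fMLP arrays lay above both unstimulated arrays of set 2, and knockout fMLP replicate 2 lay near the others. The difference was 1.47 (SE 0.109, adjusted p = 0.0020, limma) and 1.50 without that array (adjusted p = 6.91e-05). On the 4 unstimulated arrays of set 1 the signal was lower still, 5.45 to 5.55. The call was lost without unstimulated replicate 3 of the wild type (adjusted p = 0.161) or of the knockout (0.0684), on set 2 alone (0.252) and with no block, where the difference was 2.28 (0.0865). The tested genes most like Snord37 over the 10 arrays, after removal of the set means, were Cd14, a co-receptor for bacterial lipopolysaccharide (Pearson r = 0.98), Xist (0.98) and 0610010K14Rik (0.974).

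Snord57 had a probe set with a high signal, a mean of 12.35 over the 10 arrays. It lies in Nop56, which encodes a core protein of C/D box particles. Its signal was 11.50 and 11.41 on unstimulated replicate 3, 13.05 and 12.51 on the wild type fMLP arrays, and 13.32 and 11.92 on the knockout fMLP arrays. The 4 fMLP arrays lay above both unstimulated arrays of set 2, yet the set 1 arrays reached 12.25 to 12.56, as high as the lower fMLP arrays. The difference from replicate 3 was 1.24 (SE 0.341, adjusted p = 0.151, limma), and 1.60 without knockout fMLP replicate 2 (adjusted p = 0.000344).

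Snord33 and Snord35a share Rpl13a, a ribosomal protein gene of the large subunit. Snord33 was at 7.25 and 7.22 on unstimulated replicate 3, 8.42 and 7.85 on the wild type fMLP arrays, and 8.40 and 7.04 on the knockout fMLP arrays. Snord35a was at 9.16 and 9.35 on unstimulated replicate 3, 10.13 and 9.57 on wild type fMLP arrays, and 10.41 and 9.26 on knockout fMLP arrays. The set 1 arrays were at 7.45 to 7.87 for Snord33 and at 8.915 to 9.40 for Snord35a. For both genes 3 fMLP arrays lay above both unstimulated arrays of set 2, and knockout fMLP replicate 2 lay below or between them. Their differences were 0.69 and 0.59 over all arrays (adjusted p = 0.381 and 0.416, limma), and 1.03 and 0.88 without that array (adjusted p = 0.00409 and 0.0133).

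Snord49a and Snord49b lie in the noncoding gene 2410006H16Rik. Snord49b was at 10.76 and 10.89 on unstimulated replicate 3, 12.23 and 11.28 on wild type fMLP arrays, and 12.33 and 10.15 on knockout fMLP arrays. Knockout fMLP replicate 2 was thus below both unstimulated arrays while the other fMLP arrays were above them. The difference was 0.67 (adjusted p = 0.598, limma) and 1.22 without that array (adjusted p = 0.0112). Snord49a, from the same gene, had 0.29 and 0.47, neither of them called.

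Snord15a and Snord15b lie in Rps3, a small subunit protein gene. Snord15a was at 7.38 and 7.45 on unstimulated replicate 3, 8.19 and 7.72 on wild type fMLP arrays, and 8.38 and 7.18 on knockout fMLP arrays. Its set 1 arrays, at 8.32 to 8.47, overlapped the highest fMLP array and lay above the other fMLP arrays. The difference was 0.45 over all arrays and 0.76 without knockout fMLP replicate 2 (adjusted p = 0.00785, limma), against 0.12 and 0.37 for Snord15b.

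Of the C/D box genes called only without that array, Snord104 had 0.68, Snord53 0.60, Snord35b 0.45 and Snord42b 0.40 (adjusted p = 0.0258, 0.0373, 0.0386 and 0.0292, limma). Snord42b differs from the rest in that knockout fMLP replicate 2 was its highest array: 8.44, against 7.99 to 8.09 on the other fMLP arrays and 7.60 and 7.66 on unstimulated replicate 3. Snord104 ran from 9.29 and 9.40 on unstimulated replicate 3 to 10.31, 9.72 and 10.04 on 3 fMLP arrays. It was at 8.84 on knockout fMLP replicate 2. The set 1 arrays of Snord53 (8.245 to 8.72) and Snord35b (8.74 to 9.025) lay within the fMLP ranges, 7.75 to 8.90 and 8.16 to 9.32. Over all arrays the differences of Snord53 and Snord35b were 0.36 and 0.16, and 0.12 and 0.070 with no block. At the other end, Snord73b and Snord47 had differences of -0.46 and -0.19 over all arrays and of 0.17 and 0.14 without it, so that the sign of these uncalled values rests on 1 array. Snord73b was at 7.21 on knockout fMLP replicate 2, against 9.22 to 10.18 on the other fMLP arrays. Snord82, from an intron of the nucleolin gene Ncl, was at 12.28 and 12.02 on unstimulated replicate 3, at 12.71, 12.43 and 12.70 on 3 fMLP arrays and at 11.27 on knockout fMLP replicate 2, with a difference of 0.13 (0.49 without that array, adjusted p = 0.0733, limma). Snord8, Snord55 and Snord95 had small spreads over the 4 fMLP arrays (SD 0.060, 0.057 and 0.106) and differences of 0.28, 0.23 and 0.26 (0.30, 0.25 and 0.25 without knockout fMLP replicate 2), none called. Their direction rests on the comparison within set 2. The set 1 arrays of Snord8 were at 10.28 to 10.38, above all fMLP arrays at 9.07 to 9.20, and with no block the differences were -0.70, -0.39 and -0.013.

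**Figure D2:**
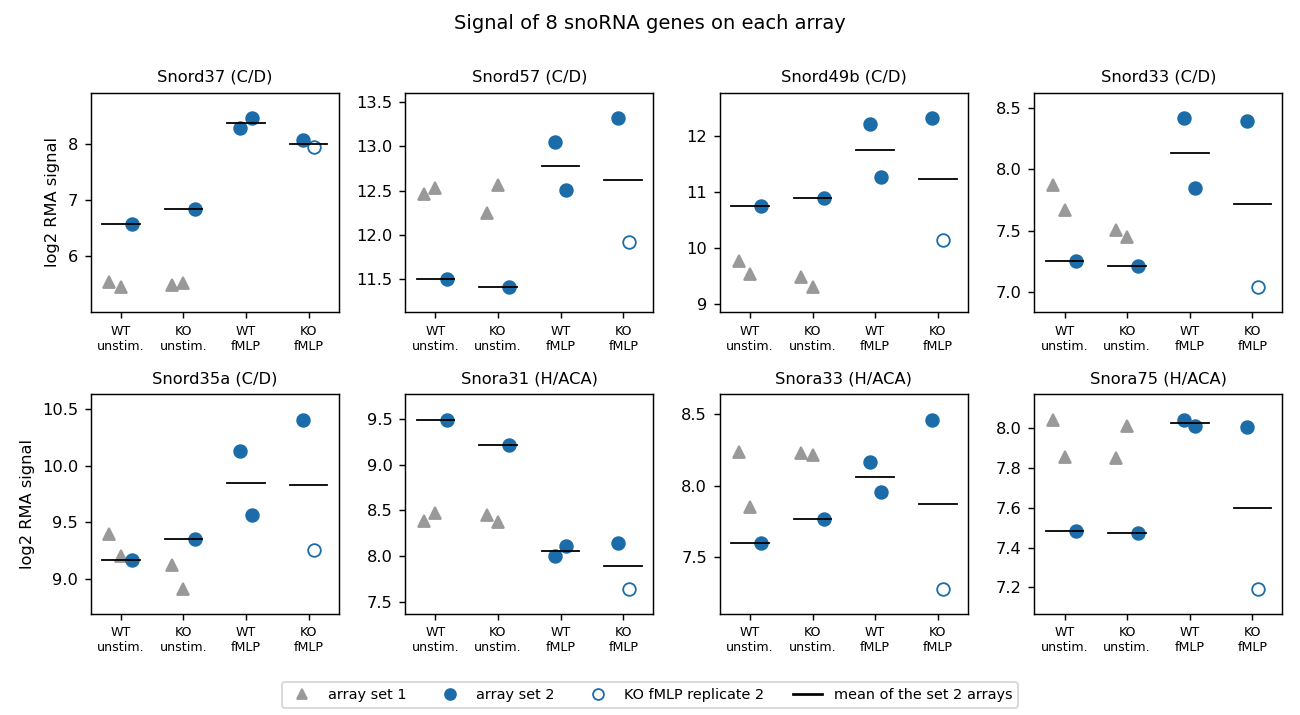
Log2 RMA signal (y axis, own range for each gene) of 5 C/D box and 3 H/ACA box genes on every array, by group; grey triangles are set 1, blue circles set 2, the open circle is knockout fMLP replicate 2 and bars are means of the set 2 arrays. Snord37 and Snora31 separate the fMLP arrays from unstimulated replicate 3 on all 4 arrays, while for Snord49b, Snord33, Snora33 and Snora75 the open circle lies below the unstimulated arrays of set 2.

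Among H/ACA box genes, Snora31 was the 1 member called lower. It lies in Tpt1, the gene of an abundant translationally controlled protein. Its signal was 9.49 and 9.21 on unstimulated replicate 3, 8.01 and 8.11 on wild type fMLP arrays, and 8.15 and 7.65 on knockout fMLP arrays. All 4 fMLP arrays lay below both unstimulated arrays of set 2, and below the set 1 arrays at 8.38 to 8.47 too. The log2 signal fell by 1.37 (SE 0.148, adjusted p = 0.0123, limma), and by 1.25 without knockout fMLP replicate 2 (adjusted p = 0.000129). The call was lost without unstimulated replicate 3 of either genotype (adjusted p = 0.432 and 0.271), on set 2 alone (0.252) and with no block, where the difference was -0.75 (0.14), and narrowly without wild type unstimulated replicate 1 or 2 or wild type fMLP replicate 2 (0.0509, 0.054 and 0.0506). The most similar tested genes over the 10 arrays were the mast cell and basophil protease genes Cpa3 (r = 0.984) and Mcpt8 (0.984), whose own differences were -1.57 and -1.64, and 0610009B22Rik (0.977). The part of those cells in the Snora31 result was not tested.

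Snora33 and Snora75 were called only without knockout fMLP replicate 2. Snora33, in the ribosomal protein gene Rps12, was at 7.60 and 7.76 on unstimulated replicate 3, 8.17 and 7.96 on wild type fMLP arrays, and 8.46 and 7.28 on knockout fMLP arrays. Snora75, in Ncl, was at 7.49 and 7.47 on unstimulated replicate 3, 8.04 and 8.01 on wild type fMLP arrays, and 8.01 and 7.19 on knockout fMLP arrays. For both, 3 fMLP arrays lay above the unstimulated arrays of set 2 and the other below them, and the set 1 arrays (7.85 to 8.24 and 7.85 to 8.04) overlapped the fMLP arrays. The differences were 0.28 and 0.33 over all arrays (adjusted p = 0.682 and 0.481, limma), and 0.58 and 0.54 without that array (adjusted p = 0.0177 and 0.00944).

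The other 12 H/ACA box genes had differences between -0.45 (Snora23, in Ipo7) and 0.16 (Snora62, in Rpsa) over all arrays, and between -0.59 (Snora16a) and 0.29 (Snora3) without knockout fMLP replicate 2, none called. Snora52, in the gene of the stalk protein Rplp2, gave very high signals, at 13.03 and 13.19 on unstimulated replicate 3 and 12.44 to 13.39 on the fMLP arrays, with a difference of -0.09 that turned to 0.15 without knockout fMLP replicate 2. Snora73a and Snora73b, both in Snhg3, had -0.24 and -0.21 over all arrays and -0.11 and -0.054 without that array, and Snora74a, in Snhg4, had -0.14 and -0.060. Snora7a, in the ribosomal protein gene Rpl32, had -0.0031 and 0.19. Snora16a and Snora44 share Snhg12 but did not move together. On knockout fMLP replicate 2 Snora16a was at 10.54, against 8.35 to 9.18 on the other fMLP arrays. Snora44 was at 9.06 there, against 9.38 to 9.88. Without that array their differences were -0.59 and 0.13. Unstimulated replicate 3 minus the set 1 arrays gave 1.02 for Snora16a and -0.075 for Snora44.

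**Figure D3:**
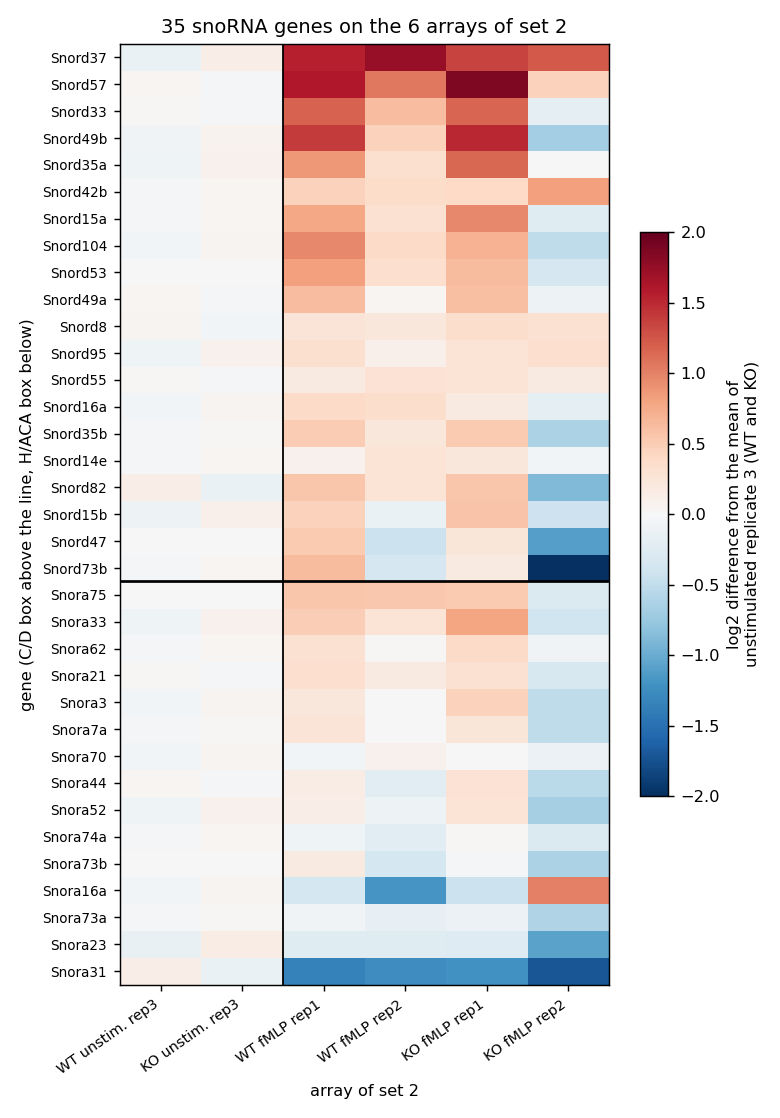
Log2 difference of each of the 35 members (y axis, C/D box above the line, H/ACA box below) from the mean of unstimulated replicate 3 of wild type and knockout, on each of the 6 arrays of set 2 (x axis); red is higher and blue lower, and the scale ends at 2 in either direction. The first 3 fMLP columns are red for most C/D box genes, with a C/D box median of 0.59, 0.30 and 0.56, and the last column, knockout fMLP replicate 2, is blue for many members of both classes.

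Taken array by array, the C/D box genes lay high on 3 of the 4 fMLP arrays. Of the 20 C/D box genes, 20 lay above both unstimulated arrays of set 2 on wild type fMLP replicate 1, 16 on replicate 2, 20 on knockout fMLP replicate 1 and 6 on replicate 2. For the 15 H/ACA box genes these counts were 9, 4, 8 and 1, and over all tested genes the shares were 40.9%, 41.2%, 41.4% and 35.3%. The median differences from replicate 3 on the same 4 arrays were 0.59, 0.30, 0.56 and -0.19 for C/D box genes and 0.14, -0.10, 0.24 and -0.50 for H/ACA box genes. The T and NK cell and the erythroid marker medians put these 4 arrays in the order of the C/D box medians. The medians of the other marker lists (B cell, neutrophil, monocyte, neuron, and eosinophil, basophil and mast cell) did not. On the same 4 arrays the median over 5 T and NK cell markers was 9.60, 8.45, 9.23 and 7.92, against 7.59 and 7.72 on unstimulated replicate 3. That over 2 erythroid markers was 10.63, 10.15, 10.46 and 9.50, against 9.91 and 9.84, and that over 5 B cell markers was 11.34, 11.38, 11.57 and 10.48, against 10.67 and 11.12. The part of these cells in the C/D box differences was not tested. Of the members 6, all C/D box, had all 4 fMLP arrays above both unstimulated arrays (12.1% of all tested genes), and 3, all H/ACA box, had all 4 below (20.3%). Over all 51 genes without the filter these were 12 (10 C/D box, 2 H/ACA box) and 4 (1 C/D box, 3 H/ACA box), and Snord37 and Snord42b had passed the filter only through fMLP arrays. The shares over all 19938 unfiltered genes were not counted, so these unfiltered counts cannot be set against the whole array. Without knockout fMLP replicate 2, 19 of the 35 members had all 3 fMLP arrays above (16 C/D box, 3 H/ACA box; 27.8% of all tested genes) and 4 had all 3 below (all H/ACA box; 28.4%). Knockout fMLP replicate 2 was the lowest fMLP array for 30 of the 35 members, and for 7366 of the 13496 tested genes. Wild type fMLP replicate 1 also lay above wild type fMLP replicate 2 for 29 of the 35 members (6358 of the 13496 tested genes).

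The array sets differed in the members too: unstimulated replicate 3 minus the set 1 arrays gave a median of 0.37 for C/D box genes, from -1.47 (Snord8) to 1.72 (Snord82), 0.19 for H/ACA box genes and 0.18 for all tested genes.

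In wild type cells Snord37 was called higher by 1.70 (adjusted p = 0.00361, limma; 0.0445% of tested genes were called higher), and no member was called lower (0.037%). In knockout cells Snord37 was called higher by 1.24 (adjusted p = 0.0286; 0.037% higher) and Snora31 lower, at -1.40 (adjusted p = 0.0476; 0.0815% lower). Without knockout fMLP replicate 2, 4 members were called higher in wild type cells (Snord37, Snord57, Snord33 and Snora75; 3.7% of tested genes) and Snora31 lower (1.77%), and 6 were called higher in knockout cells (Snord57, Snord49b, Snord37, Snord33, Snord35a and Snord15a; 1.46%) and Snora31 lower (0.793%), where the lone knockout fMLP array is assumed to vary like the other groups. Of the members named here, Snord37, Snord33 and Snora75 had passed the filter only through fMLP arrays, so these counts favour a rise. The knockout calls of the full model were both lost with the replicate number added as a block (0 called).

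No member was called between genotypes. In unstimulated cells 0 members were called by limma and 0 had an unadjusted p below 0.05 (0.489% of tested genes had one), and Lcn2 was the 1 tested gene called (0.00741%). The smallest p belonged to Snora44 (-0.28), Snord37 (0.09), Snord82 (-0.30) and Snord16a (-0.12; adjusted p = 1 for each, limma). The differences ran from -0.30 (Snord82) to 0.17, with a median of -0.03 for C/D box and -0.001 for H/ACA box genes. After fMLP 0 were called and 2 had an unadjusted p below 0.05 (8.62% of tested genes): Snord37 at -0.36 (adjusted p = 0.41, limma) and Snora16a at 1.06 (adjusted p = 0.41), which was 0.34 without knockout fMLP replicate 2. Snord16a and Snora75 came next, at -0.37 and -0.43 (adjusted p = 0.41). The interaction, the difference between the fMLP responses of the genotypes, was called for 0 members (0% of tested genes), with 1 unadjusted p below 0.05 (1.85% of tested genes), for Snord37 at -0.46 (SE 0.162, adjusted p = 0.769, limma). Snora16a, Snora75 and Snora73a followed, at 1.07, -0.41 and -0.26 (adjusted p = 0.769). These counts rest on knockout fMLP replicate 1: without it, when the knockout fMLP group is the divergent array alone, 26 of the 35 members were called between genotypes after fMLP (2 higher, 24 lower, against 13.9% and 32.9% of tested genes) and 18 in the interaction (10.7% and 25.2% of tested genes).

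The containing genes of Snord37, Snord57 and Snora31 had smaller differences than these snoRNAs, and Rps3 had a larger one than Snord15a and Snord15b. Of the 31 containing genes 19 were tested, which leaves out those of Snord33, Snord35a and Snord49b, and 0 were called over all arrays (0.2% of all tested genes were called higher and 0.222% lower), with differences from -0.54 to 0.60 and a median of -0.08. Eef2 had 0.16 (0.33 without knockout fMLP replicate 2) where Snord37 had 1.47 and 1.50. Nop56 had 0.17 (0.23) where Snord57 had 1.24 and 1.60. Tpt1 had -0.25 (-0.17) where Snora31 had -1.37 and -1.25. Each of these 3 hosts lay on the same side of 0 as its snoRNA, with a smaller value, and the difference between snoRNA and host was not tested. Rps12 and Ncl had -0.33 and -0.09 without that array where Snora33 and Snora75 had 0.58 and 0.54. Rps3 was the 1 containing gene called without knockout fMLP replicate 2, higher by 0.78 (adjusted p = 0.0239, limma; 6.79% of all tested genes were called higher), with 0.76 for Snord15a and 0.37 for Snord15b from the same gene. Over all arrays Rps3 had 0.60, Snord15a 0.45 and Snord15b 0.12. Of 21 members with a tested containing gene, 13 had a value above that of the containing gene, and 16 without knockout fMLP replicate 2. Values of a snoRNA and its host come from different probe sets, so only the differences, not the levels, are set side by side.

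**Figure D4:**
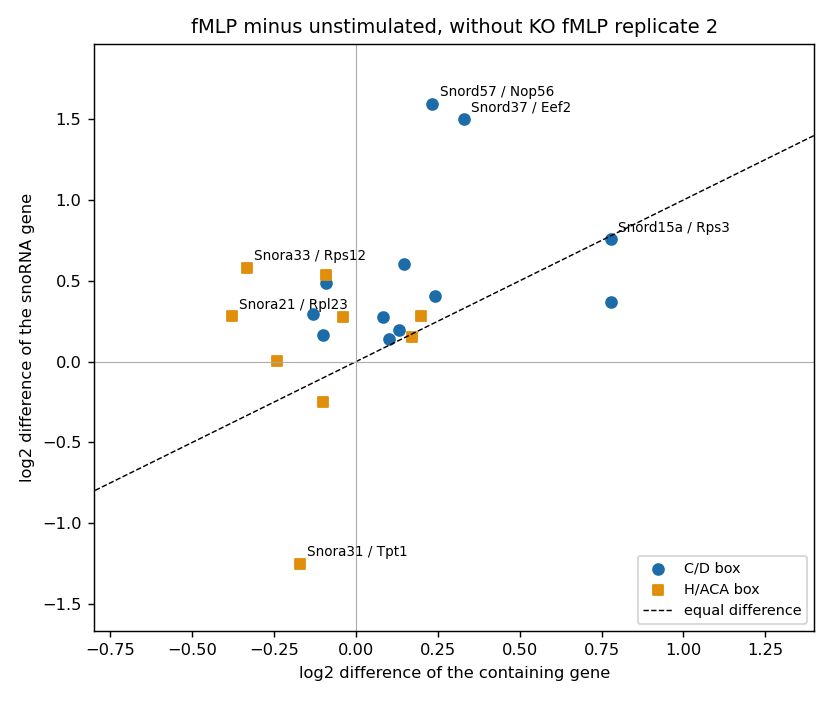
Log2 difference between fMLP and unstimulated arrays, without knockout fMLP replicate 2, of each snoRNA gene (y axis) against that of the gene that contains it (x axis), for the 21 members whose containing gene was tested; circles are C/D box, squares H/ACA box, and the dashed line marks equal differences. Snord57 and Snord37 lie far above the line and Snora31 far below it, while Snord15a lies on it.

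The proteins that work with snoRNAs were not called over all arrays. The C/D box core proteins Fbl, Nop56, Nop58 and Snu13 and the H/ACA box core proteins Dkc1, Gar1, Nhp2 and Nop10 had 0 of 4 and 0 of 4 members called in either fit, with medians of 0.17 and 0.13 over all arrays and 0.20 and 0.22 without knockout fMLP replicate 2. Over all arrays 0 genes were called in any of the 7 lists drawn up for the snoRNA pathway. The U3 processome list, described below, held differences of both signs over all arrays. Utp4 and Rrp9 had 0.40 and 0.37 (0.42 and 0.37 without knockout fMLP replicate 2). Utp3 and Dcaf13 had -0.43 and -0.41 (-0.40 and -0.33 without that array). Without knockout fMLP replicate 2, 2 of 9 assembly factors were called higher (limma): Nufip1, an assembly factor of box C/D particles, at 0.87 (adjusted p = 0.00657), and Ruvbl2, an ATPase of the R2TP complex, at 0.61 (adjusted p = 0.00424). In that fit 4 of 18 genes of the U3 processome, which handles the precursor of the small subunit RNA, were also called higher, between 0.37 and 0.46 (Imp3, Utp4, Tbl3 and Wdr36). For RNA polymerase I these were 2 of 11 (Polr1b at 0.48 and the initiation factor Rrn3 at 0.40). Of 12 genes of 3′ end trimming and RNA decay, 1 was called lower, the exonuclease gene Xrn1 at -0.41 (adjusted p = 0.0255), and of 8 noncoding host genes 0 were called. Of all tested genes, 6.79% were called higher and 3.98% lower in that fit.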

How the data were processed

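Total RNA (100 ng a sample) of each of the 10 samples was put on its own Affymetrix Mouse Gene ST array. The deposited values are RMA signals made with Affymetrix Expression Console, per the submitters' processing notes, and their range (3.906 to 14.81) was read as a log2 scale, the base being unstated. RMA makes value distributions alike within a run, and whether all arrays shared 1 run is not given in the sources used here. Of 35556 probe sets, 21789 name 1 gene and 1621 name several; the latter were not used for members.

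A gene was tested if it lay above each array's own median on at least 2 arrays. All arrays were fitted in limma 3.58.1 (R 4.3.3) with a coefficient per group and the array set as a block (5 residual degrees of freedom; 4 without knockout fMLP replicate 2), two-sided, adjusted by Benjamini-Hochberg and called below 0.05. The block turns the averaged fMLP difference into the fMLP arrays minus unstimulated replicate 3. Exact permutation of 4 arrays against 2 could give no p below 0.0667. Differences are fMLP minus unstimulated, or knockout minus wild type. The script was tested on simulated data.

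The genes, lists and comparisons were chosen with earlier results of these data known. Members named are those called in any comparison with or without knockout fMLP replicate 2, the 8 largest differences in each direction, the 8 brightest, the 4 smallest p in each genotype comparison, and up to 4 genes of each list; Snora3, Snora21, Snora30, Snora62, Snora70, Snord8, Snord15b, Snord49a, Snord95 and Snord118 were named outside this rule, after their values were seen. Containing genes come from RefSeq's gene table by position, without strand. Alternatives were no block, set 2 alone, quantile normalization, median centring, no or a stricter filter (75th percentile), the mean of probe sets, array weights, robust moderation with a variance trend, a block for replicate 1 against 2, and leaving out each array. A median over all arrays as filter, and no filter without knockout fMLP replicate 2, were added after seeing the data. Replicate numbers were shared between groups, but the correlation of replicate 1 minus replicate 2 over genes was 0.466 for the unstimulated groups and -0.161 to 0.0577 for the other pairs of groups, so they were not taken as pairs. Each array stands for 1 sample, and the number of arrays limits the precision.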

Additional observations from a re-analysis of the deposited data

Results flagged for a closer look

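A signal outside the members appeared in 24 probe sets that name several Snord116 genes each and so belong to no member (41 probe sets of snoRNA genes name several genes). The Snord116 cluster is imprinted and known for its expression in the brain. The median over the 24 probe sets, which hold 7 distinct sets of values, was 11.73 to 12.06 on the 4 arrays of set 1, 5.60 and 5.47 on unstimulated replicate 3 of wild type and knockout, 8.55 and 8.19 on the wild type fMLP arrays, and 9.01 and 9.90 on the knockout fMLP arrays. The fMLP arrays were 8.91 ± 0.74 (SD, n = 4) and lay 3.38 above unstimulated replicate 3, a difference that 4 probe sets outside the Snord116 group reached or exceeded. Within the unstimulated groups, replicate 3 lay -6.38 from set 1, and 50 probe sets outside that group had a lower value. Knockout fMLP replicate 2, the array with the neuron marker median of 11.68, was the highest fMLP array here. The values move with the array set as well as with fMLP, and the part of either was not tested.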

How the results depend on the processing

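Depth does not apply to arrays; with 2 to 3 arrays a group, the calls rest on the spread shared over groups. For the averaged fMLP difference, 1 member was called higher and 1 lower. Both counts were 0 with no block (which also moves the median of all genes to 0.18), on set 2 only and with the stricter filter, which leaves 20 members without Snord37 and Snora31. Called higher were 2 with no filter (of 51), 3 with array weights (2.19% of all tested genes) and 16 with no filter and without knockout fMLP replicate 2 (3.91%). Leaving out 1 array gave 0 to 12 called higher (12 without knockout fMLP replicate 2, against 6.79% of tested genes; 4 without its replicate 1, against 11.9%; 0 without either unstimulated replicate 3) and 0 to 4 called lower (0 without wild type unstimulated replicate 1, 2 or 3, knockout unstimulated replicate 3 or wild type fMLP replicate 2, and 4 without knockout fMLP replicate 1, against 17.5%). In wild type (1 called) there were 0 with no block or the stricter filter, 2 with trend and robust moderation, 19 with array weights (27.8% of tested genes called) and 9 with no filter and without knockout fMLP replicate 2 (3%), and 0 to 5 when 1 array was left out. In knockout (2 called) there were 0 with no block, quantile normalization, the stricter filter, array weights or the replicate block, 1 with median centring, no filter or a median over all arrays as filter, 7 with no filter and without knockout fMLP replicate 2 (1.21%), and 0 to 15 when 1 array was left out (15 without knockout fMLP replicate 1, against 39.6%). The replicate block changed no other count of calls: 1 higher and 1 lower in the averaged difference, 1 in wild type and 0 in the genotype comparisons. Genotype counts were 0 in unstimulated cells under every alternative run, 0 to 26 after fMLP and 0 to 18 in the interaction when 1 array was left out. The C/D box median of 0.29 was 0.61 with no block and 0.12 to 0.46 with 1 array left out, and the H/ACA box median of -0.08 was -0.20 to 0.13.

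Uncalled members changed sign with no block: Snora33 (-0.018), Snord15a (-0.20), Snord73b (0.64), Snora23 (0.029), Snora16a (0.45), Snord47 (0.86), Snora52 (0.22), Snora7a (0.38), Snord55 (-0.39), Snord8 (-0.70), Snord15b (-0.29), Snord95 (-0.013), Snora3 (-0.82), Snora21 (-0.12), Snora62 (-0.25) and Snora70 (0.11). Quantile normalization turned Snora52 (0.0026) and Snora7a (0.038), and median centring turned Snora7a (0.0080). Without knockout fMLP replicate 2 and with no filter, Snord73b was 0.17, Snord47 0.14, Snora44 0.13, Snora52 0.15, Snora7a 0.19 and Snora70 0.0066. When 1 array was left out, values of both signs were given by Snora33 (-0.012 to 0.58), Snord35b (-0.13 to 0.45), Snord73b (-1.09 to 0.17), Snora16a (-0.59 to 0.13), Snord47 (-0.53 to 0.14), Snora44 (-0.28 to 0.13), Snord82 (-0.23 to 0.49), Snora52 (-0.33 to 0.15) and Snora7a (-0.19 to 0.19), with both ends of each range set by leaving out 1 of the knockout fMLP arrays. The lists for quantile normalization, median centring and 1 array left out cover only members named by the rule, not those named outside it. For the changes of sign the cause was not tested.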
